A study of Mus musculus with 24 samples.

Results

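The interferon regulatory factors (IRFs) are a family of transcription factors, and 8 of them were followed here across in vitro differentiated mouse T helper cells: Irf1, Irf2, Irf3, Irf4, Irf5, Irf7, Irf8 and Irf9. They were taken by name from the array, where 9 probes carried these 8 genes out of 20028 genes with a named probe, by a rule that reads no measured value, although earlier results of these data were known when the family was picked. Each array held Cy3-labelled RNA of Th1 or Th2 cells and, as a common reference, Cy5-labelled RNA of naive CD4+CD62L+CD25-CD44lo T cells from lymph nodes and spleens, all from female C57BL/6 mice of an age not given in the sources used here. The 24 arrays each carried a different condition. Cells were given the vehicle DMSO, 50 or 500 nM of JQ1, which blocks the bromodomains of BET proteins, or 1 or 10 µM of Flavopiridol, which inhibits P-TEFb, the kinase of transcription elongation, and in every treatment 1 array held unstimulated and 1 held reactivated cells. Treatment lasted 6 hours, with a later time of 24 hours for Th1 cells under DMSO and under 500 nM JQ1. The time of the 2 Th2 DMSO arrays is unclear, because their titles and source names give different hours. The series describes 1 biological replicate, nothing in the labels says that conditions came from separate cultures, and the stimulus is not given there, so every p-value below measures how alike an effect was across cell types, states or treatments, not the spread between animals.

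IRF proteins share an amino-terminal DNA-binding domain that recognises GAAA repeats, as in the interferon-stimulated response element. Irf3, Irf5 and Irf7 are phosphorylated downstream of innate sensors and drive interferon genes, Irf9 joins Stat2 in the complex that answers type I interferon, and Irf1, itself induced by interferon, activates many of the same targets that Irf2 generally restrains. In T cells Irf4 is induced by antigen receptor signalling and binds with Batf and Jun proteins, and Irf8 is its close relative.

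The promoters of Irf1, Irf2 and Irf8 are shown because they are the IRF promoters in which any of 4 motifs was found, in RefSeq windows of assembly GRCm38.p6 from 250 bases before to 50 bases after a start. The motifs, searched on both strands, were a pair of IRF half-sites (GAAANNGAA), the STAT element GAS (TTCNNNGAA), an AP-1 site (TGANTCA) and an NF-kB site (GGANTTTCC). The 8 genes had 11 such windows, of which 1 held the IRF pair and 3 held GAS, against 8.56% and 8.3% of the 32851 windows of all genes. Of the 11 windows 0 held these AP-1 or NF-kB letters, which 7.81% and 1.25% of all windows did. Other forms of these sites were not searched, so the promoters may still hold them. A match is a description of letters and not a shown binding site. The 250 bases upstream of the start are printed 5′ to 3′ on the plus strand with the matches in capitals: for Irf1, chr11:53769764-53770013 with GAS at -90 to -82, for Irf2, chr8:46739495-46739744 with the IRF pair at -241 to -233 and GAS at -224 to -216, and for Irf8, chr8:120736108-120736357 with GAS at -171 to -163 and at -153 to -145.
Irf1: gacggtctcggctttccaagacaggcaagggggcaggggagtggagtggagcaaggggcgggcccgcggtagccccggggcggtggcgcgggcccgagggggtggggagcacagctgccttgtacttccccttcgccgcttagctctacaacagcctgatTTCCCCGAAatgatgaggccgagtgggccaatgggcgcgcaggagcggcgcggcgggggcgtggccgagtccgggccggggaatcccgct
Irf2: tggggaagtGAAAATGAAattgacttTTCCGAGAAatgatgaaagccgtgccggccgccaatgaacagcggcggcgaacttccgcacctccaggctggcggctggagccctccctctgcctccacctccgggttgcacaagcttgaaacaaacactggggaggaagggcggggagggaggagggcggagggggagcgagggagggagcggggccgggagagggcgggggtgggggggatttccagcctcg
Irf8: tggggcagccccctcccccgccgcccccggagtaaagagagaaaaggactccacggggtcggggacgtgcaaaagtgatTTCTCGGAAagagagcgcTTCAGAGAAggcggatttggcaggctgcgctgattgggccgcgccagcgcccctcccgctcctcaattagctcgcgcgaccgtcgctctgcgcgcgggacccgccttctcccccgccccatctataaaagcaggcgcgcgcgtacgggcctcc

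Values below are log2 ratios of sample over naive reference after loess normalization, and a difference is always between such ratios. The ratio to naive cells is a description with no test, because the reference was 1 RNA. Loess centres each array, so differences are relative to the bulk of genes. A spot was well above background by the scanner software's flag on 35.4 to 41.5% of spots in Cy3 on the 8 Flavopiridol arrays and on 43.8 to 52.0% on the other 16 arrays. The T cell genes Cd3e, Cd4 and Cd28 were above background on all 24 arrays. Th1 DMSO arrays carried Tbx21, the Th1 master regulator, at 5.41 to 6.35, and the Th2 DMSO pair carried Il4 at 3.52 and 8.02 with Gata3 at 1.95 and 2.64. The reactivated Th2 DMSO array also carried Tbx21 at 4.64 and Ifng at 6.20, against -0.02 and 0.65 in its unstimulated partner. The other Th2 genes were Il13, at 1.07 unstimulated and 4.84 reactivated in the Th2 DMSO pair, and Il5, at 0.10 and 3.66. Reactivated Th1 DMSO arrays averaged 3.78 for Il4 and 4.15 for Il13, above the unstimulated Th2 DMSO array. B cell genes were present: Cd79b passed the background flag on 21 arrays, Ms4a1 on 20 and Pax5 on 5, and the summed Cy3 signal of 4 such genes was 11.43 to 12.09 (log2) with Th2 DMSO and 9.54 to 10.17 with Th1 DMSO. Of 8 myeloid and dendritic cell genes, Csf1r, Itgam, Siglech and H2-Ab1 passed on all 24 arrays, Flt3 on 15, Itgax on 9, Cd14 on 3 and Lyz2 on 0. Of the CD8 T cell genes, Cd8b1 passed on 21 arrays and Cd8a on 13, and 3 NK cell genes passed on 0 to 1. Fewer cells of a type and less RNA per cell cannot be told apart in such bulk RNA.

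Of the 8 genes, Irf1, Irf2, Irf3, Irf4, Irf8 and Irf9 were well above background in the sample channel on all 24 arrays. Irf5 and Irf7 were so on 16 arrays and not well above background on any Flavopiridol array. A second Irf1 probe passed on 2 arrays only, spanned -0.22 to 0.19 and was not used. Across the 16 arrays without Flavopiridol, Irf4 (1.24 to 5.22), Irf8 (1.31 to 3.78) and Irf5 (0.83 to 2.48) were above the naive reference on every array, and Irf3 (-1.29 to -0.44) and Irf9 (-2.40 to -0.60) were below it on every array. Irf1 (-1.90 to 0.68), Irf2 (-0.37 to 0.68) and Irf7 (-2.60 to 0.56) lay on both sides. For 7 of the genes the Cy5 signal of the reference varied little between arrays, with an SD of 0.08 to 0.14 on the log2 scale. For Irf8 that SD was 0.64, and its Cy5 signal followed its Cy3 signal across arrays (r = 0.94, 24 arrays), so that Irf8 ratios span less than the Cy3 signal alone.

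**Figure D1:**
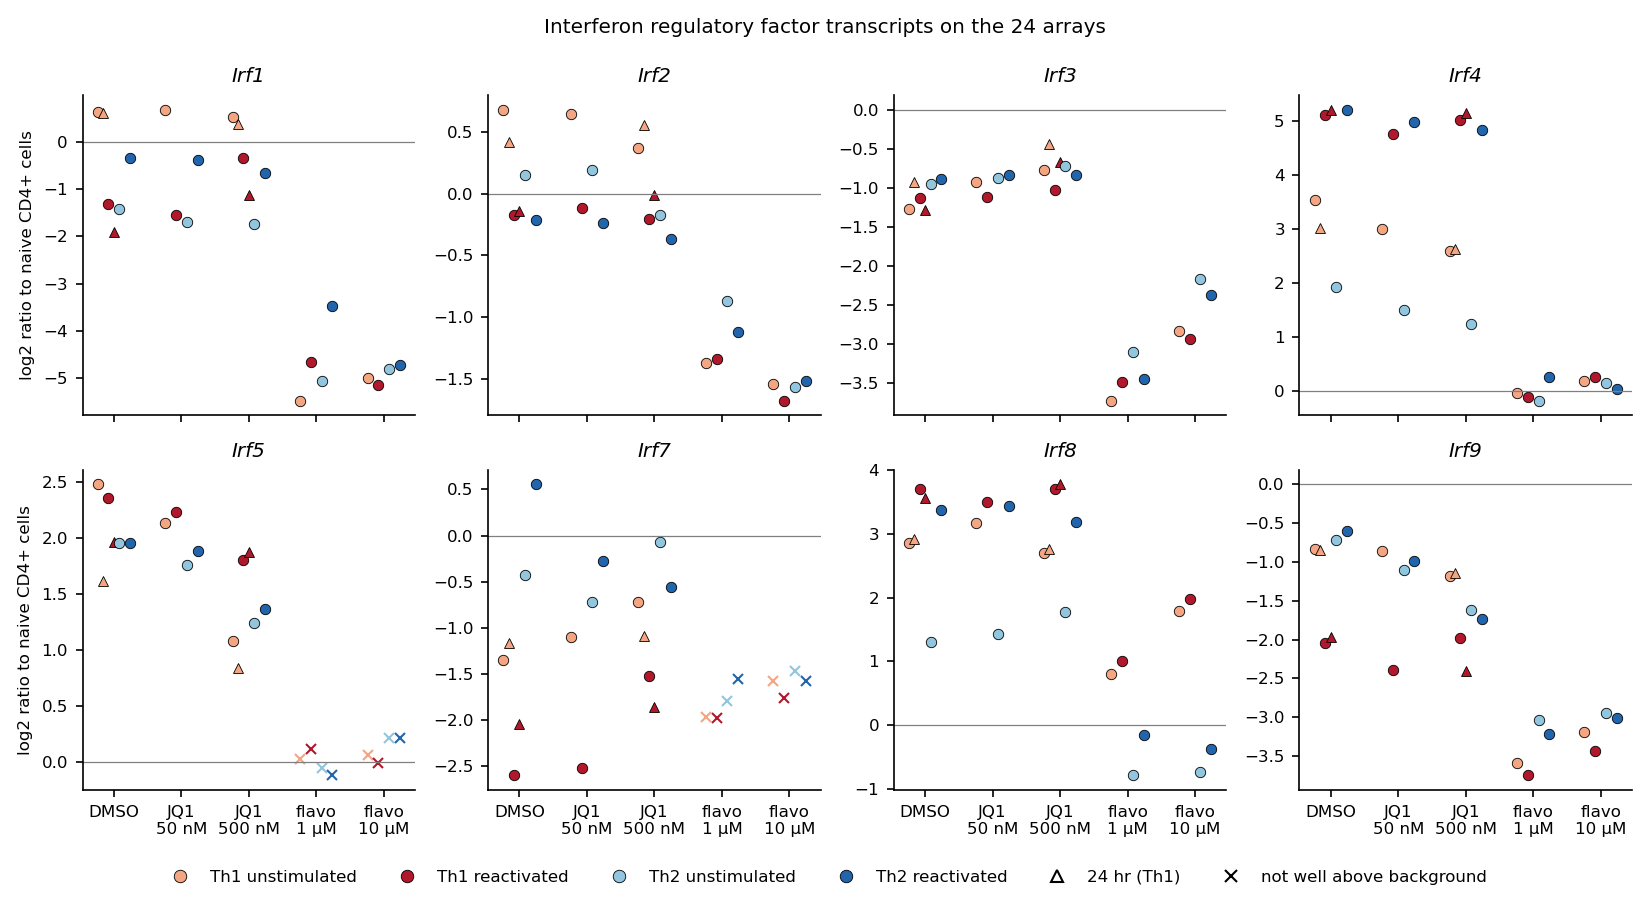
Log2 ratio of each IRF transcript to naive CD4+ T cells (vertical axes) on all 24 arrays by treatment (horizontal axes), with 1 point per array, triangles for the 24 hour Th1 arrays and crosses where the spot was not well above background in Cy3. Flavopiridol arrays sit below all other arrays for Irf1, Irf2, Irf3, Irf4 and Irf9, a pattern shared by 14.5% of 13316 genes. They do so for Irf5 too, whose Flavopiridol spots were not well above background. Irf4 reached 4.77 to 5.22 on every reactivated array without Flavopiridol.

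Reactivation without drug was compared in the 6 DMSO arrays, which form 3 pairs of unstimulated and reactivated cells. Irf4 rose from 3.55 to 5.12 in Th1 cells at 6 hours, from 3.02 to 5.22 in Th1 cells at 24 hours and from 1.92 to 5.21 in Th2 cells. The unstimulated Th2 array started lowest, and the 3 reactivated arrays ended at nearly the same level. Over the 3 pairs the gain was 2.35 ± 0.31 (SE), a 5.10-fold difference (limma adjusted p = 0.00148). Irf8 went from 2.86 to 3.71, from 2.92 to 3.57 and from 1.31 to 3.37 in the same pairs, a mean gain of 1.19 ± 0.28 (adjusted p = 0.0128). By the Cy3 signal alone the gain of Irf8 was 2.27 (adjusted p = 0.00567), and with the scanner software's log ratios it missed the threshold (1.01, adjusted p = 0.064), as it did without the pairs as a block (adjusted p = 0.058). Irf2 went from 0.68 to -0.17, from 0.41 to -0.14 and from 0.15 to -0.21, so all 3 reactivated arrays lay below all 3 unstimulated ones. Its mean difference of -0.59 ± 0.14 (adjusted p = 0.015) was lost when any Th1 DMSO array was left out (adjusted p = 0.062 to 0.083), with the scanner software's ratios (adjusted p = 0.060) and with a shift by the spike-in controls, which left -0.30 (adjusted p = 0.195). These 3 calls of 8 stand beside 50.9% of the 12544 genes tested, 22.1% higher and 28.9% lower, so the share of IRF genes called was not above the background.

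The other 5 genes did not pass this test. Irf3 (-0.050, adjusted p = 0.808) and Irf5 (0.08, adjusted p = 0.690), both targets of innate signalling, lay between -0.36 and 0.35 in the 3 pairs. Irf1 (-1.12 ± 0.64, adjusted p = 0.193), Irf9 (-0.74 ± 0.27, adjusted p = 0.061) and Irf7 (-0.38 ± 0.41, adjusted p = 0.477) did not move alike in the Th1 and Th2 pairs. Irf1 went from 0.63 to -1.31 and from 0.61 to -1.90 in Th1 cells but from -1.42 to -0.34 in Th2 cells. Irf7 went from -1.35 to -2.60 and from -1.16 to -2.04 in Th1 cells but from -0.42 to 0.56 in Th2 cells. Irf9 went from -0.84 to -2.05 and from -0.85 to -1.97 in Th1 cells and stayed between -0.72 and -0.60 in Th2 cells. Without either Th2 DMSO array, 6 genes were called over the 2 Th1 pairs that remained, with Irf1 at -2.23, Irf9 at -1.17, Irf7 at -1.06 and Irf2 at -0.71 lower and Irf4 at 1.88 and Irf8 at 0.75 higher.

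That difference between cell types was then tested directly, a comparison added after these values had been seen. It used the 8 unstimulated and reactivated pairs with DMSO or JQ1, 5 of Th1 and 3 of Th2 cells. For 5 of the IRF genes the signed change on reactivation was lower in Th1 than in Th2 cells, which can be a larger fall or a smaller rise, where 2.96% of 13142 genes were called in that direction. After reactivation Irf1 was lower in each of the 5 Th1 pairs (-2.52 to -0.87) and higher in each of the 3 Th2 pairs (1.07 to 1.30). The Th1 minus Th2 difference for Irf1 was -2.96 ± 0.32 (adjusted p = 0.00112). Irf9, the Stat2 partner, averaged -1.18 in Th1 and 0.04 in Th2 pairs, a difference of -1.22 ± 0.16 (adjusted p = 0.00369). Irf7 averaged -1.03 in Th1 and 0.31 in Th2 pairs, a difference of -1.34 ± 0.29 (adjusted p = 0.0314), and its 3 Th2 pairs ran from -0.49 to 0.98. The T cell activation genes Irf4 and Irf8 were higher after reactivation in all 8 pairs, with the larger gain in Th2 cells: Irf4 by 2.10 in Th1 and 3.45 in Th2 cells (difference -1.35 ± 0.22, adjusted p = 0.00977), Irf8 by 0.77 and 1.83 (difference -1.06 ± 0.20, adjusted p = 0.0183). Irf2 (-0.34, adjusted p = 0.153), Irf3 (-0.17) and Irf5 (0.33) did not pass. In the 6 DMSO arrays alone, only Irf1 kept its call (-3.31, adjusted p = 0.0174), and with a shift by the spike-in controls it was again the only one of the 5 to do so. Without a Th2 DMSO array Irf7 (adjusted p = 0.131) and Irf8 (adjusted p = 0.099) lost their calls, without a Th2 array of 50 nM JQ1 so did Irf4 (adjusted p = 0.066), Irf7 and Irf8, and Irf7 also lost it without an array of Th1 DMSO at 6 hours or of Th1 with 50 nM JQ1 (adjusted p = 0.070 to 0.071).

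**Figure D2:**
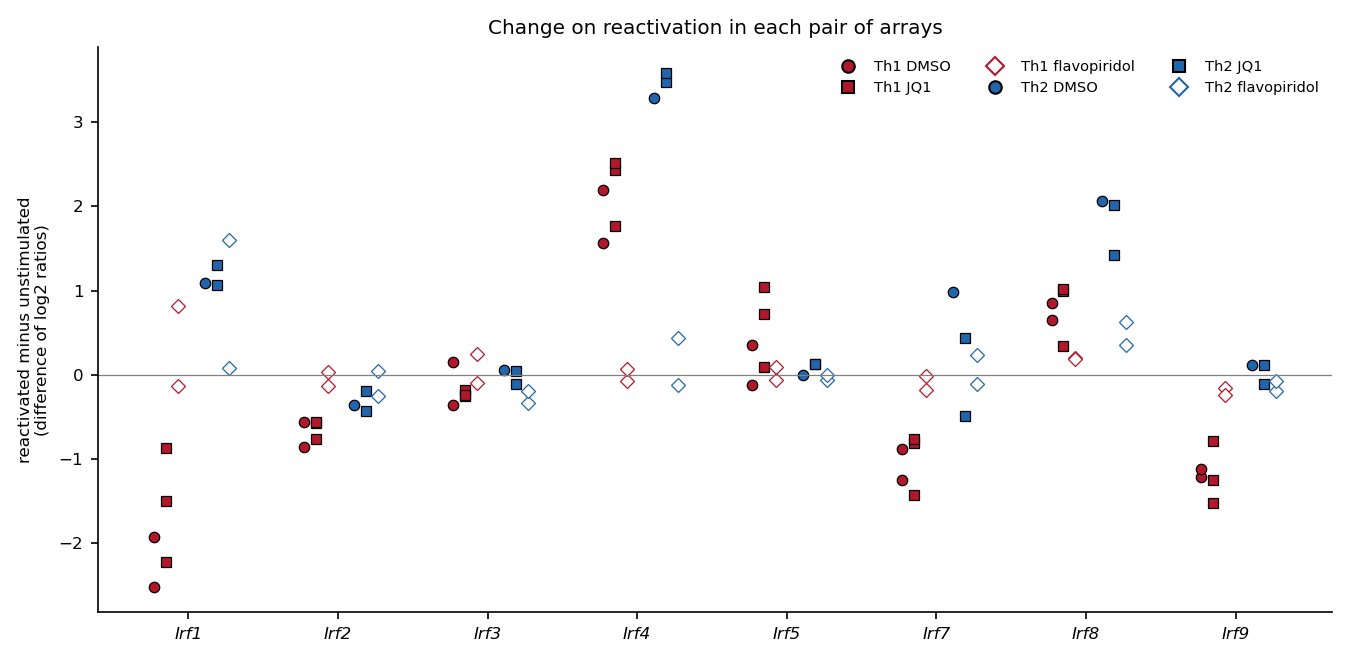
Reactivated minus unstimulated difference of log2 ratios (vertical axis) for each IRF gene, 1 point per pair of arrays, with Th1 pairs in red, Th2 pairs in blue and Flavopiridol pairs as open diamonds. Irf1 separates the DMSO and JQ1 pairs of Th1 cells (-2.52 to -0.87) from those of Th2 cells (1.07 to 1.30), and Irf4 lies at 1.57 to 3.59 except with Flavopiridol.

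Interferon-stimulated genes, the known targets of these factors, showed the same kind of difference between cell types. Of 16 tested genes of a list of 17, 10 had a lower signed change in Th1 than in Th2 cells and 0 a higher one, with a median difference of -1.16 against 0.01 for all genes. Gbp2, a guanylate-binding protein, averaged -0.45 in Th1 pairs and 2.82 in Th2 pairs (difference -3.27). Usp18, a brake on interferon signalling, averaged -1.26 and 1.37, and the ubiquitin-like Isg15 averaged 0.59 and 2.72. Tap1, the peptide transporter, and the immunoproteasome subunit Psmb9 are among the 10 through lower values in Th1 cells (-1.18 against 0.03 and -1.29 against -0.60). The count was 9 with median centring, 6 with the scanner software's ratios and 4 with the spike-in shift. Of the 9 partner genes tested 2 were lower and 1 higher in this test, against 2.96% and 2.35% of all genes. Jun gained 0.49 in Th1 and 2.00 in Th2 pairs, Stat2 averaged -1.21 and -0.29, and Ikzf1 0.14 and -0.41, while 0 of 7 interferon receptor and Janus kinase genes and 0 of 10 upstream kinases and adaptors passed, against 5.31% of all genes in either direction. In the same test 1 of 4 Th1 genes, Ifng (-3.34), and 1 of 4 Th2 genes, Il5 (-2.89), had the lower signed change in Th1 cells, with list medians of -2.03 and -1.58. The summed Cy3 signal of the Th1 genes Tbx21, Ifng, Il12rb2 and Cxcr3 was higher after reactivation in both cell types, at 8.72 and 13.14 on the unstimulated and reactivated Th2 DMSO arrays and at 14.60 to 14.67 and 19.19 to 19.42 on the Th1 DMSO arrays. The mean Ifng ratio on the Th1 DMSO arrays went only from 7.12 to 8.46. The Ifng difference above is thus one of ratios and does not give the gain in Cy3 signal. The part of these Th1 genes in the result was not tested. Of 4 B cell genes and 2 CD8 genes 0 differed in this test, and of 7 myeloid and dendritic genes 1 did.

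**Figure D3:**
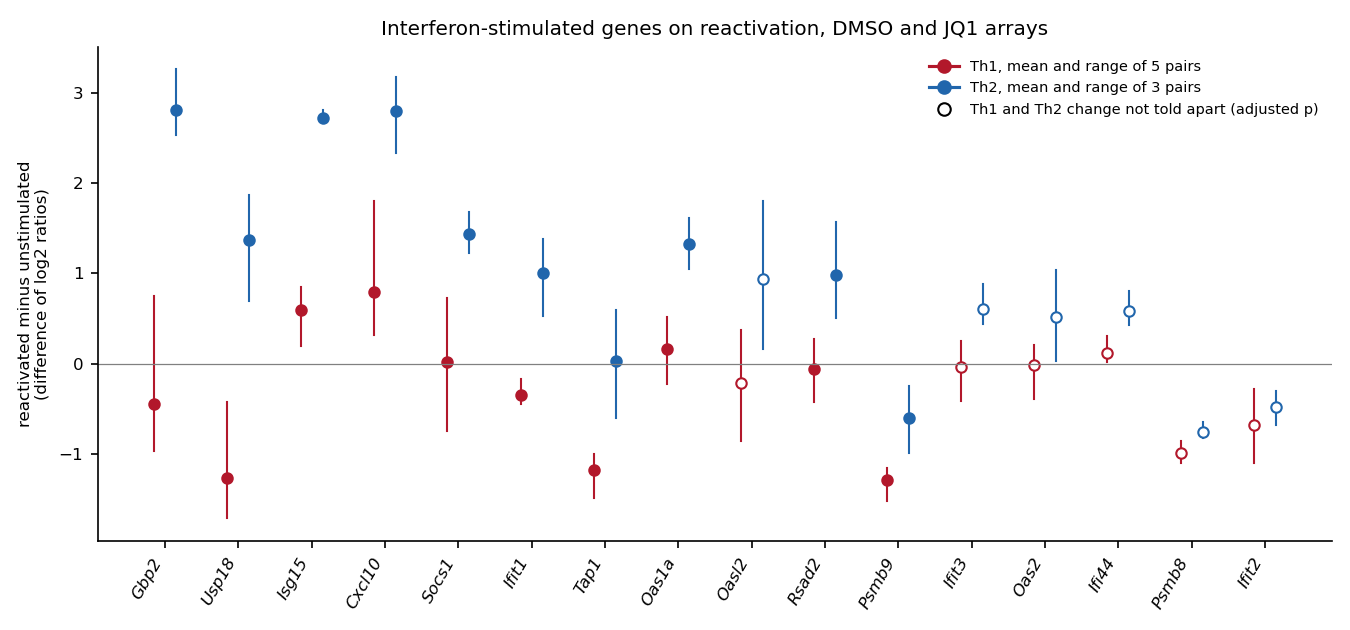
Reactivated minus unstimulated difference of log2 ratios (vertical axis) for the 16 interferon-stimulated genes tested, as mean and range of 5 Th1 pairs (red) and 3 Th2 pairs (blue) with DMSO or JQ1, open where the Th1 minus Th2 difference did not pass the test. Gbp2 lies at -0.45 in Th1 and 2.82 in Th2 cells, and 10 genes passed, all with the lower signed change in Th1 cells.

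Other genes of the pathway are given for the same 3 DMSO pairs, beside the 22.1% of all genes called higher and 28.9% called lower. Among 7 interferon receptor and Janus kinase genes, 6 were lower and 1 higher, with a median of -1.43 against -0.05 for all genes. The lower ones included the receptor chains Ifngr1 (-3.08) and Ifnar1 (-2.05), and the higher one was the kinase Jak2 (2.64). Among 10 kinases and adaptors upstream of Irf3, Irf5 and Irf7, 2 were higher and 3 lower, with the DNA sensing adaptor Sting1 at -2.10 and the kinase Ikbke at -1.67. Of 16 interferon-stimulated genes, 2 were higher, Isg15 (1.26) and the chemokine Cxcl10 (1.20), and 3 were lower, Psmb8 (-0.94), Psmb9 (-0.86) and Ifit2 (-0.78), a smaller share than among all genes. Of the 3 Irf2 binding proteins 2 were lower, Irf2bpl (-1.64) and Irf2bp2 (-0.42), and of 9 partner genes 3 were lower and 0 higher, with differences of -0.83 to -0.64. Among 9 genes known to be bound by Batf with Irf4 or Irf8, the cytokines Il21 (3.76) and Il10 (2.64) were higher and 3 genes lower, including the inhibitory receptor Ctla4 (-1.35).

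Flavopiridol at 10 µM lowered all 6 IRF genes that were well above background on every array, in all 4 contexts (Th1 and Th2, unstimulated and reactivated), against 33.5% of 12457 genes called lower and 15.5% called higher. At 1 µM the same 6 genes were lower, against 35.5% of all genes. Irf1 stood at -5.48, -4.67, -5.01 and -5.14 on the 4 Th1 arrays with Flavopiridol (unstimulated and reactivated at 1 µM, then at 10 µM) and, in that order, at -5.06, -3.46, -4.80 and -4.71 on the 4 Th2 arrays, so every one lay below the lowest other array (-1.90). The Irf1 difference at 10 µM was -4.30 ± 0.46, or 19.7-fold (adjusted p = 0.000145). Irf4 lay between -0.18 and 0.26 on the 8 arrays, with a median of 0.10, which is at the naive level whether or not the cells were reactivated. It differed from DMSO by -3.79 ± 0.52, or 13.8-fold (adjusted p = 0.000504). Irf9 (-3.75 to -2.94) and Irf3 (-3.73 to -2.17) fell further below naive cells, by 2.10 and by 1.52 at 10 µM against DMSO (adjusted p = 6.93e-05 and 5.74e-05). Irf2 (-1.68 to -0.87) fell by 1.69 (adjusted p = 0.000202). These 5 genes were called at 10 µM in every alternative, but the sizes moved. They ran from -5.43 to -2.19 for Irf1 and from -4.92 to -3.39 for Irf4. For Irf9 they ran from -3.26 to -1.87, for Irf3 from -2.65 to -1.42 and for Irf2 from -2.99 to -1.47. The 8 Flavopiridol arrays and the 16 others did not overlap for Irf1, Irf2, Irf3, Irf4 and Irf9, a pattern shared by 14.5% of 13316 genes.

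On the Flavopiridol arrays Irf8 lay higher in Th1 than in Th2 cells, but all 4 Th1 arrays lay on 1 slide and all 4 Th2 arrays on another, so slide and cell type cannot be told apart there. It stood at 0.81, 1.01, 1.79 and 1.98 on the Th1 arrays and at -0.79, -0.16, -0.74 and -0.39 on the Th2 arrays, which do not overlap. Against DMSO Irf8 fell by 2.15 (SE 0.37, adjusted p = 0.00154), and in the Cy3 signal alone the difference was -3.16. Irf5 was not well above background in any of the 8 arrays, so it entered the test only through its DMSO arrays, and its difference is a bound, at least 3.82-fold at 10 µM and at least 3.90-fold at 1 µM. Irf7 was likewise not well above background, and it did not pass (adjusted p = 0.242). For Irf7 the DMSO signal was at least 4.88-fold higher than with 10 µM in reactivated Th2 cells and at least 1.45-fold higher in unstimulated Th1 cells, and in reactivated Th1 cells, where the DMSO level was itself low, no fold could be given. With median centring, the spike-in shift or the scanner software's ratios Irf7 passed the threshold. Those calls rest on spots not well above background with Flavopiridol, so they are not read as a fall and no size is given. The median of all genes at 10 µM moved from -0.22 to -1.05 with median centring and to -1.35 with the spike-in shift. Every Flavopiridol array lay on another slide than its DMSO control, and the slides that held Flavopiridol arrays of one cell type also held arrays without it of the other. Within those slides Irf1 was at -5.48 to -4.67 with Flavopiridol (Th1) and at -1.73 to -0.39 without (Th2) on one, and at -5.06 to -3.46 (Th2) and -1.90 to 0.61 (Th1) on the other. Irf2, Irf3, Irf4 and Irf9 were likewise apart within both slides, while Irf8 overlapped on the first (0.81 to 1.98 against 1.42 to 3.45). With slide as a random block Irf1, Irf2, Irf3, Irf4, Irf8 and Irf9 were all called lower at 10 µM (adjusted p = 0.000611 to 0.0107).

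Between the doses of Flavopiridol, 1 gene passed the test. Irf3, the constitutively expressed innate factor, was higher at 10 than at 1 µM in all 4 contexts (-2.84, -2.94, -2.17 and -2.37 against -3.73, -3.49, -3.11 and -3.45), by 0.86 ± 0.13 (adjusted p = 0.0185), where 1.45% of genes were called higher. The other 7 genes lay between -0.40 (Irf2) and 0.45 (Irf8). With median centring (adjusted p = 0.146) or the spike-in shift (0.647) this call was lost, as it was without any one of 7 of the 8 Flavopiridol arrays (0.073 to 0.104). Whether the 10 µM effect depended on state was also tested: Irf4 fell by 5.01 in reactivated and by 2.56 in unstimulated cells, a difference of -2.45 ± 0.53 (adjusted p = 0.0233, 6.94% of genes called in that direction), a call lost with median centring (adjusted p = 0.052), when any one 10 µM array was left out (0.053 to 0.126) and without the reactivated Th2 DMSO array (0.050). Between Th1 and Th2 cells 0 genes of 8 differed in their Flavopiridol response by limma's adjusted p, with 3 below an unadjusted p of 0.05 (Irf8, and Irf5 and Irf7, whose spots were not well above background with Flavopiridol), and 0.0161% of all genes were called. With Flavopiridol present, reactivation moved an IRF gene by 2-fold or more in 1 case, Irf1 in Th2 cells at 1 µM (1.60, from -5.06 to -3.46), where 5.03% of genes did so. In the other 3 Flavopiridol pairs no IRF gene reached 2-fold, where 1.91% (Th1, 1 µM), 0.810% (Th1, 10 µM) and 0.904% (Th2, 10 µM) of genes did.

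**Figure D4:**
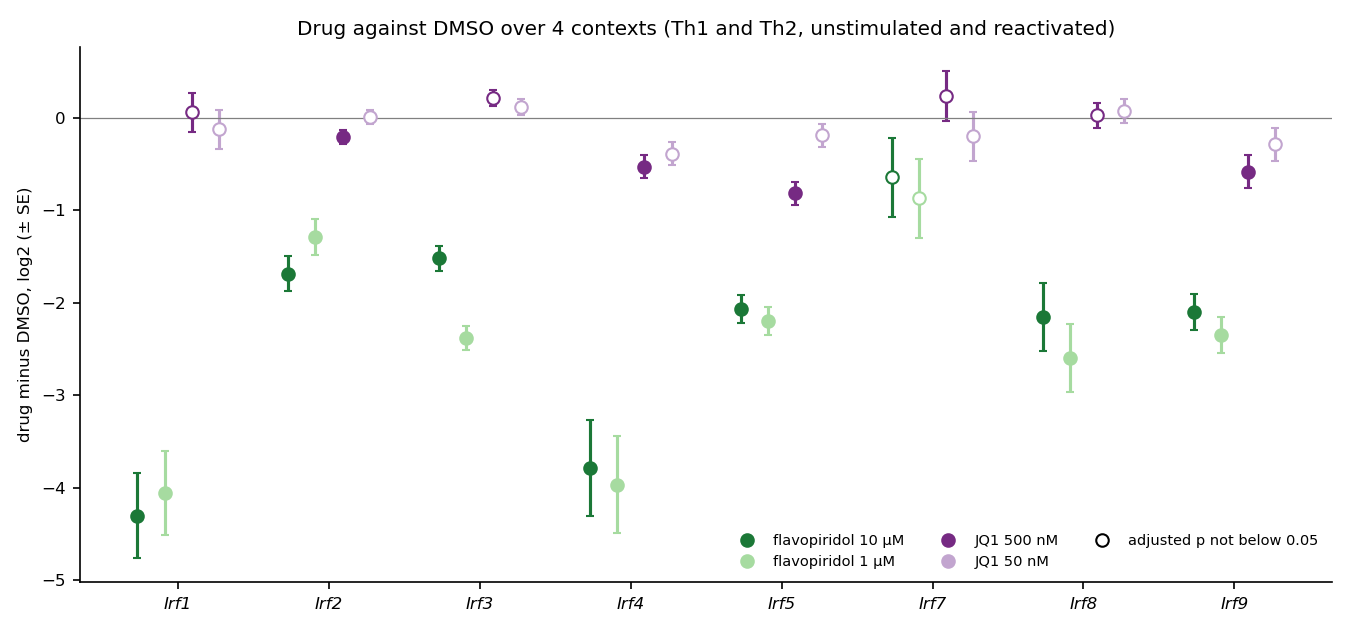
Drug minus DMSO difference of log2 ratios (vertical axis, mean over 4 contexts ± SE from limma) for each IRF gene, in green for Flavopiridol and purple for JQ1, open where adjusted p was not below 0.05. With Flavopiridol the 6 genes above background differed by -1.52 (Irf3) to -4.30 (Irf1) at 10 µM, while Irf5 and Irf7 rest there on spots not well above background, and with JQ1 the largest difference was -0.81 for Irf5 at 500 nM.

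In the wider pathway, read beside the 33.5% of all genes called lower and a median of -0.22, Flavopiridol at 10 µM lowered all 3 Irf2 binding proteins, among them Irf2bp2 (-4.01) and Irf2bpl (-2.24). Of 9 partner genes tested 5 were lower, with Jund at -2.82, Batf at -2.04 and Spib at -1.71. Of 14 interferon-stimulated genes tested 5 were lower and 0 higher, led by Cxcl10 (-3.30), Isg15 (-3.00) and the signalling inhibitor Socs1 (-2.82), a share near that of all genes with a list median of -0.19. Jak2 (-2.88), Ifnar1 (-1.26) and Jak1 (-1.04) were the 3 of 7 receptor and kinase genes that were lower, and Ticam1 (-1.86), Traf6 (-1.37) and Tbk1 (-1.34) among 6 of 10 upstream kinases and adaptors. Of 9 genes bound by Batf with Irf4 or Irf8, 3 were lower, with Il21 at -3.34 and Bcl6 at -2.68, and 1 higher, Il12rb2 (1.52), whose call median centring ended (0.65, adjusted p = 0.143). Of 4 B cell genes 3 were lower (median -0.99), of 5 myeloid and dendritic genes 3 were lower and 2 higher, and of 2 CD8 genes 1 was higher, and their part in these results was not tested. The higher calls of Batf3 (0.72) and Irak1 (0.88) turned negative with median centring (-0.40 and -0.47).

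JQ1 at 500 nM lowered 4 of the 8 genes, against 29.7% of 12925 genes called lower and 17.8% called higher. Irf5, a mediator of Toll-like receptor signalling, went from 2.48 to 1.08 in unstimulated and from 2.36 to 1.80 in reactivated Th1 cells, and from 1.95 to 1.23 and from 1.96 to 1.37 in Th2 cells. All 4 contexts were lower, by 0.55 to 1.40, for a mean of -0.81 ± 0.13, or 1.76-fold (adjusted p = 0.000461), and among the 4 genes Irf5 alone kept its call under every alternative tried. Irf4 went from 3.55 to 2.59 and from 1.92 to 1.24 in unstimulated Th1 and Th2 cells, but only from 5.12 to 5.03 and from 5.21 to 4.83 in reactivated cells. Its mean difference was -0.53 ± 0.12 (adjusted p = 0.00548), and the difference between states did not pass (0.58, adjusted p = 0.061). Irf9 fell by 0.58 (SE 0.18, adjusted p = 0.0201), with -0.91 and -1.13 in Th2 and -0.35 and 0.07 in Th1 cells, and it was not called in Th1 contexts alone (-0.14, adjusted p = 0.631) or without any one Th2 array of DMSO or 500 nM (0.062 to 0.076). Irf4 was not called in Th1 contexts alone either (adjusted p = 0.13). Irf9 fell most in Th2 cells, where JQ1 and DMSO arrays lay on different slides and the DMSO time is unclear. Slide and time cannot be told apart from JQ1 there. Irf2 differed by -0.20 ± 0.08 (adjusted p = 0.046), the smallest of the 4, and its call was lost in most alternatives, including without any one of 11 of the 12 arrays (0.051 to 0.138).

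Irf1 (0.06), Irf3 (0.22, adjusted p = 0.0541), Irf7 (0.24, adjusted p = 0.50) and Irf8 (0.03) were not called with 500 nM JQ1. The mean of Irf7 joined opposite values, 0.64 and 1.08 in Th1 cells and 0.35 and -1.12 in Th2 cells, and that of Irf1 included 0.97 in reactivated Th1 cells. Without that 1 array of 500 nM JQ1, whose spike-in mean of 0.90 stood above those of the other arrays of its slide (-0.83 to -0.26), Irf1 was called lower (-0.26, adjusted p = 0.036). Of 4 B cell genes 3 were lower with 500 nM (median -0.58), as were both CD8 genes (median -0.43), and of 7 myeloid and dendritic genes 2 were lower and 1 higher, and their part in these results was not tested. At 50 nM 0 of the 8 genes were called by limma (0.302% of all genes), with 1, Irf4 at -0.38, below an unadjusted p of 0.05, and the other 7 lay between -0.29 (Irf9) and 0.12 (Irf3). Between the doses only Irf5 differed (-0.63 ± 0.13, adjusted p = 0.0042, 20.5% of genes called lower). The 500 nM response differed between cell types or states for 0 of 8 genes by adjusted p, with 2 below an unadjusted p of 0.05 in each test (Irf7 and Irf9 for cell type, Irf4 and Irf5 for state), beside 0% and 10.1% of all genes. In Th1 cells at 24 hours, where JQ1 and DMSO shared a slide, Irf5 was lower by 0.78 in unstimulated and by 0.09 in reactivated cells, and 0 IRF genes reached 2-fold (7.22% and 7.99% of genes did). The Th1 comparisons at 6 hours lay within a slide, and those of Th2 cells did not.

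The share of lower calls with 500 nM JQ1 varied between the lists of genes around the IRF family, beside 29.7% of all genes. Of 10 upstream kinases and adaptors 8 were lower and 0 higher, with Sting1 at -1.67. Of 16 interferon-stimulated genes 10 were lower, including Cxcl10 (-1.12) and the RNA sensing relative Oasl2 (-1.02), and 1 was higher, Socs1 (0.41), which turned to -0.15 with the spike-in shift. The Irf4 partners Batf (-1.56) and Batf3 (-1.44) fell while Jund (1.00) and Jun (0.99) rose, calls that the spike-in shift ended. Of the genes bound by Batf with Irf4 or Irf8, Il21 (-2.07), Il10 (-1.44) and Ctla4 (-1.02) were lower. That list (3 lower and 2 higher of 9), the partners (3 and 3 of 9) and the receptors and Janus kinases (3 and 1 of 7) lay nearer to the share of all genes. At 50 nM 0 genes were called in any of these lists.

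The drugs were compared directly at their higher doses, where all 6 IRF genes above background on every array were lower with 10 µM Flavopiridol than with 500 nM JQ1, against 34.0% of 13151 genes. The difference was -4.36 for Irf1, -3.26 for Irf4, -2.18 for Irf8, -1.74 for Irf3, -1.52 for Irf9 and -1.48 for Irf2. Irf5 and Irf7 were not well above background with Flavopiridol and are not compared. The arrays of the drugs lay on different slides in every context, and with slide as a random block the same 6 genes were called (-4.40 to -1.48).

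Th1 and Th2 cells were compared over 10 conditions, each with 1 array of either cell type, and 3 of the 8 genes differed, against 35.6% of 13151 genes. Irf8 was higher in Th1 cells in 10 of 10 conditions, by 1.28 ± 0.23 (2.43-fold, adjusted p = 0.00122), and by 1.63 in the Cy3 signal alone. The mean includes the 4 conditions with Flavopiridol, where slide and cell type cannot be told apart. Over the alternatives the Irf8 difference ran from 0.85 to 1.70, and its call was lost without the block (adjusted p = 0.294). With DMSO, on 1 slide, it stood at 2.86 in Th1 and 1.31 in Th2 unstimulated cells and at 3.71 and 3.37 in reactivated cells. Irf7, the amplifier of the type I interferon response, was lower in Th1 cells in all 6 conditions with DMSO or JQ1 (-3.16 to -0.38), by 1.39 without the Flavopiridol arrays (adjusted p = 0.0184). Over all 10 conditions it was also called (adjusted p = 0.022), but in the 4 with Flavopiridol neither cell type was well above background. For Irf7 the gap in the DMSO arrays was -0.93 unstimulated and -3.16 reactivated. Irf3 was lower in Th1 cells by 0.30 (adjusted p = 0.0106). Median centring ended the calls of Irf7 (adjusted p = 0.066) and Irf3, and without the Flavopiridol arrays Irf3 differed by -0.19 (adjusted p = 0.059). The other 5 genes lay between -0.43 (Irf9) and 0.44 (Irf4). In the 8 conditions with a drug the Th1 and the Th2 array lay on different slides. Of 4 B cell genes 3 (median -1.14) and of 7 myeloid and dendritic genes 4 (median -0.39) were lower in Th1 cells, and both CD8 genes were higher (median 0.85), and their part in the values of Irf7 and Irf8 was not tested. Between 24 and 6 hours with DMSO no IRF gene differed by 2-fold (1.55% and 1.04% of genes did).

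The genes whose log2 ratios ran most like each IRF gene over the 24 arrays are given as a description, with Pearson's r over 11820 genes and no p. The arrays share 1 reference, and the 8 Flavopiridol arrays stand apart, so r largely reads that gap. Irf4 ran most like Gmppb (0.984), Gramd1b (0.983) and Tnfsf14 (0.981), Irf3 like Ccdc174 (0.983), Nck1 (0.981) and Ppil4 (0.980), and Irf2 like Mfsd6 (0.981), Vhl (0.970) and Klhl9 (0.969). Irf5 was nearest to Snx21 (0.974), Ddx28 (0.965) and Msantd4 (0.963), Irf8 to AU022252 (0.969), Srxn1 (0.965) and Sec23ip (0.962), and Irf1 to Rab35 (0.954), Casp8ap2 (0.954) and Phf13 (0.953). Irf9 was nearest to Trim21 (0.956), an interferon-induced antibody receptor, then Tgfbr2 (0.954) and Slc25a12 (0.950). Irf7 had the weakest neighbours, Derl3 (0.833), Adcy4 (0.831) and the RNA sensor regulator Dhx58 (0.795). Among the IRF genes themselves and over the 16 arrays without Flavopiridol, Irf4 and Irf8 gave r = 0.91, Irf7 and Irf9 0.70, and Irf3 and Irf5 -0.80.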

How the data were processed

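Total RNA of Th1 or Th2 cells (Cy3) and of naive CD4+ T cells (Cy5) was hybridised to 24 dual-colour Agilent arrays with no dye swap, 1 array per condition. The deposited scanner files held each spot's median pixel intensity and local background and the software's own log10 ratio, per the file headers from Agilent Feature Extraction 10.7.1.1 with a grid of genome build mm9. A second deposited table held the authors' log2 ratios for 34710 probes, of unstated normalization and centring, whose column medians run from -0.0172 to 0.0144. It correlated with the values used here at r = 0.981 to 0.996, in the direction of sample over naive cells.

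The design named mean spot signals, and the columns used were medians. Background was corrected with normexp (offset 50), each array was normalized by loess, control spots and 234 to 331 spots with outlier flags per array were left out, and repeated spots of a probe were averaged (limma 3.58.1, R 4.3.3). Of 55681 probes, 26437 carried 1 of 20028 symbols through RefSeq accessions and 29244 carried none. The brightest probe stood for a gene. Genes well above background in Cy3 on at least 3 arrays of a fit were tested with limma's lmFit and eBayes, with the pairs or contexts as a block, and adjusted over all genes by Benjamini-Hochberg at 0.05. The number of arrays limits the precision. Tested on simulated data, the fits recovered 4-fold changes of 86% of genes for reactivation, 87% for 10 µM Flavopiridol, 100% for 500 nM JQ1, 53% for the Flavopiridol by state term and 36% for the Flavopiridol by cell type term.

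A bound ("at least") sets the mean normalized Cy3 signal of the DMSO arrays against, on each dim array, the higher of its own signal and the lowest signal well above background. The IRF genes and all lists were chosen with earlier results of these data known. All 8 IRF genes were followed in every comparison, those far from the threshold as a range or count, with the 3 genes of highest correlation. For reactivation and each drug's higher dose against DMSO, list genes were drawn from those called with at least 2-fold, at most 3 per list. A few list genes are not reported here. Stat2, Ikzf1, Irf2bp2, Psmb8, Psmb9, Ifit2, Tap1, Ifng, Il5, Batf3, Irak1, Socs1, Jun and Jund were named in some comparisons after their values were seen. Alternatives were other scalings and probe summaries, Cy3 alone, no filter, no background correction, the authors' table, no block, slide as a random block and leaving out arrays.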

Additional observations from a re-analysis of the deposited data

Results flagged for a closer look

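In 6 cases a tested effect differed between groups. The reactivation response differed between Th1 and Th2 cells, taken as Th1 minus Th2 and tested as an interaction over 8 pairs of arrays, for Irf1 (-2.96), Irf4 (-1.35), Irf7 (-1.34), Irf9 (-1.22) and Irf8 (-1.06). That comparison was added after the values had been seen. Only Irf1 kept its call in the DMSO arrays alone, and only Irf1 did so with the spike-in shift. The response to 10 µM Flavopiridol differed between reactivated and unstimulated cells for Irf4 (-2.45). No condition had replicate arrays, so no array could be tested for standing apart from its own group.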

How the results depend on the processing

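The 39 IRF gene differences that passed the test did not change direction in any alternative run, and 893 of their 987 alternatives also stayed past the threshold, while 94 did not. Among the 893 are all alternatives of Irf5 with Flavopiridol: 23 at 10 µM, 22 at 1 µM and 31 against JQ1. These rest on spots not well above background and do not speak for stability. The labels give no replicate numbers, so the pairs and contexts that formed the blocks were built from cell type, state and treatment.

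The number of IRF genes called moved by over 1.5 times in these cases, whose causes were not tested. With the scanner software's ratios it was 1 for reactivation in place of 3, 1 for 500 nM JQ1 in place of 4 and 0 for the Flavopiridol by state term in place of 1. With median centring it was 0 for 10 against 1 µM Flavopiridol in place of 1, 4 for 500 against 50 nM JQ1 in place of 1, 0 for the Flavopiridol by state term and 1 for Th1 against Th2 cells in place of 3. With the spike-in shift the same 4 comparisons gave 0, 3, 0 and 1, the JQ1 by state term gave 5 in place of 0, the Flavopiridol by cell type term 1 in place of 0, and reactivation in Th1 minus Th2 cells 1 in place of 5. Without the block the counts were 0 for 10 against 1 µM Flavopiridol, 1 for 500 nM JQ1, 0 for 500 against 50 nM JQ1, 0 for the Flavopiridol by state term, 0 for Th1 against Th2 cells and 3 for reactivation in Th1 minus Th2 cells. With Th1 contexts alone they were 0 for the Flavopiridol doses, 2 for 500 nM JQ1 and 0 for the JQ1 doses. The 8 arrays of the higher JQ1 dose and DMSO gave 2, the authors' table and the mean of all probes gave 2 each for the JQ1 doses, and the DMSO arrays alone gave 1 for reactivation in Th1 minus Th2 cells.

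Leaving out 1 array at a time gave 2 to 6 genes for reactivation (6 without either Th2 DMSO array), 2 to 5 for 500 nM JQ1 (2 without the unstimulated Th2 array of DMSO or of 500 nM JQ1), 1 to 3 for the JQ1 doses (3 without the reactivated Th1 array of 500 nM and 2 without that of Th2), 0 to 1 for the Flavopiridol doses, 0 to 2 for either drug by state term (2 without the reactivated Th1 DMSO array for Flavopiridol and without the reactivated Th2 array of 500 nM for JQ1), 3 to 4 for Th1 against Th2 cells and 2 to 5 for reactivation in Th1 minus Th2 cells (3 without a Th2 DMSO array and 2 without a Th2 array of 50 nM JQ1). It gave 7 to 8 for each Flavopiridol dose and for Flavopiridol against JQ1, and 0 for the other comparisons.

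Directions turned for differences that had not passed the test. Those never called turned too, such as Irf8 with 500 nM JQ1 in 8 of 24 alternatives (-0.54 to 0.15) and, on reactivation, Irf3 and Irf5 in 5 of 17 each. The rest were called in at least 1 alternative. For 500 nM JQ1 they were Irf1 (-0.22), Irf3 (-0.054) and Irf7 (-0.073) with median centring, the same genes with the spike-in shift (-0.51, -0.35 and -0.33), and Irf1 (-0.26 to 0.20) without single arrays. For the JQ1 doses they were Irf7 (-0.14, spike-in shift) and Irf9 (0.041, Th1 contexts alone). For the Flavopiridol by state term Irf7 gave 0.14 with median centring, 0.13 with the scanner software and -1.44 to 1.42 without single arrays. For the JQ1 by state term Irf9 gave -0.19 with median centring, and with the spike-in shift Irf1 gave -0.67, Irf2 -0.98, Irf4 -0.61, Irf5 -0.71 and Irf9 -1.10. Without single arrays that term gave -0.49 to 0.68 for Irf9, -1.38 to 0.36 for Irf7, -0.17 to 1.22 for Irf1 and -0.61 to 0.11 for Irf8. Irf7 on reactivation gave -1.06 to 0.050.

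Over all genes, calls with 10 µM Flavopiridol were 1927 higher of 6102, 286 of 8579 with median centring and 114 of 10012 with the spike-in shift. With 500 nM JQ1 they were 2295 of 6137, 739 of 6541 and 89 of 4995, and on reactivation 2770 of 6391 and, with the spike-in shift, 4068 of 6160. IRF differences are relative to such medians of all genes. Among list genes lower with 10 µM Flavopiridol, interferon-stimulated genes numbered 5, then 10 with median centring and 9 with the spike-in shift, receptors and Janus kinases 3, then 7 and 7, and partners 5, then 7 and 8. The upstream kinases lower with 500 nM JQ1 were 8, and 5 with the scanner software. The dim signals of Irf5 and Irf7 with Flavopiridol give bounds only, and Flavopiridol counts above 6 include them.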
